A study of Homo sapiens with 36 samples.

Results

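The IGF-binding protein genes IGFBP1 to IGFBP7 were followed by RNA sequencing in 2 human cell lines, SW1783 from an astrocytoma and HT29 from a colorectal adenocarcinoma. All 7 genes were taken by their symbols from the 60675 genes of the count table. Each of the 12 groups held 3 libraries, for 36 in all, and every culture was collected after 24 h. In batch B, each line received vehicle (0.1% DMSO) or an extract in hot water of *Aconitum carmichaeli* Debeaux, the medicinal aconite (ACD; Aconiti Lateralis Radix Preparata in the labels), at 500 µg/mL (high), 100 µg/mL (medium) or 20 µg/mL (low). In batch A, each line received vehicle (0.1% DMSO) or 10 µM wortmannin, an inhibitor of phosphoinositide 3-kinase (PI3K) that served as the positive control. The labels give no DMSO content for the wells with extract or wortmannin. SW1783 was grown in L-15 medium without CO2 and HT29 in DMEM with CO2, so a difference between the lines cannot be told apart from a difference between the media. Nothing in the labels says that the 3 libraries of a group came from separately grown cell stocks, and the p-values measure the spread between these libraries, which may be technical.

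IGF-binding proteins are secreted proteins that hold the insulin-like growth factors IGF1 and IGF2 outside the cell, lengthen their life and keep them from, or deliver them to, the IGF1 receptor. IGFBP1 is the member known for fast control by insulin: signalling through PI3K and AKT keeps FOXO transcription factors out of the nucleus and IGFBP1 low, and it rises in fasting and under amino acid shortage. IGFBP3, and to a lesser part IGFBP5, carry most IGF in the blood together with an acid-labile subunit, IGFBP4 is known mainly as an inhibitor of IGF action, IGFBP6 prefers IGF2, and IGFBP7 binds IGFs only weakly and is often set apart as a related protein of the vessel wall and stroma. IGFBP2 is abundant in the fetal brain and in many gliomas and epithelial tumours.

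The genes lie in a few places of the genome (GENCODE annotation of GRCh38). On chromosome 7, IGFBP1 (ENSG00000146678, 45888360 to 45893660, plus strand) and IGFBP3 (ENSG00000146674, 45912245 to 45921874, minus strand) lie tail to tail with 18584 bases and no annotated gene between them. On chromosome 2, IGFBP2 (ENSG00000115457, 216632828 to 216664436, plus strand) and IGFBP5 (ENSG00000115461, 216672105 to 216695549, minus strand) face each other in the same way over 7668 bases. IGFBP7 (ENSG00000163453) occupies 57030773 to 57110385 on the minus strand of chromosome 4 and is overlapped by 3 genes of the opposite strand, IGFBP6 (ENSG00000167779) occupies 53097436 to 53102345 on chromosome 12, and IGFBP4 (ENSG00000141753) occupies 40443450 to 40457725 on chromosome 17, both on the plus strand. IGFBP5 is overlapped by 1 antisense gene. The libraries were prepared with a directional kit, but the strand setting of the counting is not given in the sources used here.

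Promoter windows of 300 bases, 250 before to 50 after a transcript start, were held in the RefSeq table (GRCh38.p14) for 5 of the 7 members, with 7 windows in all, and not for IGFBP1 or IGFBP7. The FOXO motif GTAAACA was searched on both strands and occurred in 1 of these windows, that of IGFBP6, and in 3.42% of the 35116 windows of the table. The insulin response element motifs CAAAACA and TTATTTTG, held by 4.92% and 1.57% of all windows, and the ATF4 motifs TGATGCAAT and TGATGNAAN, of which every match to the first is also one to the second and which 0.236% and 3.61% of windows held, had no match in the windows of the members. The stretch around the IGFBP6 match (chr12:53097471-53097500, plus strand) is printed and lies inside the annotated gene. In that window the 250 bases before the start overlap an annotated exon. The 100 bases before the starts of IGFBP4 (chr17:40443350-40443449, plus strand) and IGFBP5 (chr2:216695550-216695649, minus strand) are printed too. This last pair fell with the extract in SW1783. Capitals mark GTAAACA in IGFBP6 and TATAAA in IGFBP4, a motif added after the sequences were seen, held by 11.5% of all windows and not by the window of IGFBP5. A match is a string of letters and was not tested for binding.
IGFBP6: aatttgggaaGTAAACAgaaactggaaagg
IGFBP4: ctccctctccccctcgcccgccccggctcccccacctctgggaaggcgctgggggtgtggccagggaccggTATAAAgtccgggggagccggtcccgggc
IGFBP5: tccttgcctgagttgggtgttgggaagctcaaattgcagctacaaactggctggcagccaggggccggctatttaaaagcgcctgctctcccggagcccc

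The libraries held 15941255 to 33866644 expected counts. The intestinal epithelial markers ranged widely in HT29, with EPCAM between 452 and 585 CPM (counts scaled to a common library total). KRT18 was at 3099 to 4101, LGALS4 at 491 to 660, KRT20 at 233 to 312, VIL1 at 131 to 257 and MUC2 at 7.34 to 42.7 CPM. The lowest were CDX2 at 4.80 to 7.32, CDH17 at 4.02 to 7.03, GPA33 at 3.33 to 6.17 and CDX1 at 0.510 to 1.59 CPM. SW1783 had VIM at 4076 to 4975 CPM, while the astrocytic list was split in this line labelled astrocytoma. Of its 10 genes, GFAP, S100B, AQP4, ALDH1L1 and FABP7 were at no more than 0.261 CPM in any library, whereas SOX9 was at 52.9 to 79.2, SLC1A3 at 5.58 to 50.1, NES at 2.74 to 11.2, ALDOC at 3.19 to 7.03 and OLIG2 at 0 to 1.27 CPM. Of the 4 liver markers, ALB and APOB were at no more than 0.0852 CPM in both lines, and in HT29 HNF4A was at 55.5 to 108.7 CPM and TTR at 0.126 to 0.559 CPM. In HT29, replicate 2 of the high dose differed from replicates 1 and 3 by a chi-square of 70.8 and 71.5 per degree of freedom, against 2.43 to 21.9 for the other pairs of libraries within a group of this line, and vehicle replicate 1 was above replicates 2 and 3 for every measured member in both batches. Vehicles of batch A and batch B that carry the same replicate number differed by 1.46 to 1.64 per degree of freedom, less than those with other numbers (2.04 to 17.7), and whether they came from separate cultures is not given.

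Before any treatment both lines held IGFBP4 and IGFBP6, and they differed in the other members. SW1783 held IGFBP7 far above the other members, followed by IGFBP4, IGFBP3 and IGFBP6, whereas HT29 held IGFBP4 and IGFBP6, some IGFBP2 and hardly any of the rest. Levels between genes are given as CPM per kilobase of the canonical transcript (mean ± SD of 3 batch B vehicle libraries). In SW1783, IGFBP7 stood at 1159 ± 54.4, IGFBP4 at 207 ± 2.47, IGFBP3 at 159 ± 4.77 and IGFBP6 at 91.9 ± 2.99. The lower members were IGFBP1 at 14.6 ± 0.932, IGFBP5 at 7.83 ± 0.0328 and IGFBP2 at 1.12 ± 0.164. No neighbours in this order overlapped, and IGFBP7 alone made up 70.6% ± 0.676 of the summed member level. In HT29, IGFBP4 stood at 73.5 ± 9.20, IGFBP6 at 67.3 ± 8.03 and IGFBP2 at 16.5 ± 2.91. The ranges of IGFBP4 (66.2 to 83.8) and IGFBP6 (59.4 to 75.5) overlapped across the HT29 libraries, but IGFBP4 was above IGFBP6 within each library. Their shares of the summed member level were 46.68% ± 0.620 and 42.75% ± 0.851. With the union of exons as length, their means were 73.5 and 47.3. The summed member level was 1640 ± 62.0 in SW1783 and 157 ± 20.0 in HT29, as the plot of vehicle levels shows.

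**Figure D1:**
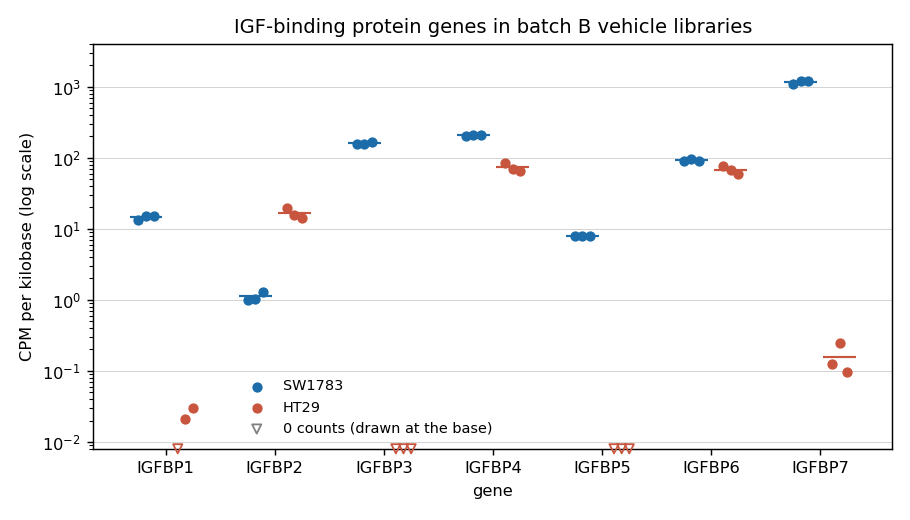
Level of each IGF-binding protein gene in the 3 batch B vehicle libraries of SW1783 (blue) and HT29 (red), in CPM per kilobase of the canonical transcript on a log axis, with points for libraries, a bar for the mean where all 3 libraries had counts and open triangles at the base for libraries with 0 counts. The IGFBP7 points span 1096 to 1191 for SW1783 and 0.0978 to 0.251 for HT29, and IGFBP2 was the only member with all HT29 libraries above all SW1783 libraries.

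Between the vehicle libraries of the lines, 6 of the 7 members differed by the DESeq2 Wald test at a Benjamini-Hochberg adjusted p under 0.05 over all genes and more than 1.5-fold, against 55.9% of the 21852 genes tested. This threshold pair is the one meant by "called" from here on. IGFBP2 was lower in SW1783, with a log2 difference of -3.87 ± 0.22 (SE, DESeq2 adjusted p = 4.29e-68), and IGFBP4 was higher by 1.51 ± 0.09 (DESeq2 adjusted p = 1.43e-57). IGFBP6 was higher by 0.47 ± 0.10 (DESeq2 adjusted p = 3.89e-06), below 1.5-fold. IGFBP3 had 0 counts in all 18 HT29 libraries and IGFBP5 had 1 count in 1 of them. Against a floor of 3 counts per library, IGFBP3 was at least 3157-fold and IGFBP5 at least 371.6-fold higher in SW1783 vehicle. IGFBP1 had 9 counts over the 18 HT29 libraries, 2 of them in batch B vehicle, for a ratio of SW1783 to HT29 of 797 (exact 95% counting interval 220.2 to 6588). IGFBP7 had at most 11.4 expected counts in any HT29 library, for a ratio of 7028 (4389 to 12060). These intervals and floors cover counting error only.

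The extract raised IGFBP1 in SW1783 at the medium and, further, at the high dose. Normalized counts (DESeq2 size factors over the 18 libraries of a line) were 435, 486 and 487 in vehicle, 450, 401 and 370 at the low dose, 666, 603 and 595 at the medium dose and 980.4, 1036 and 1067 at the high dose. The medium and high groups lay above the vehicle libraries and above each other without overlap, while the low group overlapped vehicle. At the high dose the rise was 1.13 ± 0.08 on the log2 scale, or 2.19-fold (DESeq2 adjusted p = 1.12e-40). At the medium dose it was 0.40 ± 0.09 (DESeq2 adjusted p = 3.2e-05), under the 1.5-fold line. The low dose gave -0.21 ± 0.09 (DESeq2 adjusted p = 0.245). Both dose steps were called. Medium exceeded low by 0.61 ± 0.09 (DESeq2 adjusted p = 1.88e-10), and the high dose exceeded medium by 0.73 ± 0.08 (DESeq2 adjusted p = 4.49e-18). IGFBP1 was the only member called at each step, against 1.94% of genes called for medium against low and 10.2% for high against medium. The first of these steps is close to the fold line, and it fell under 1.5-fold without medium replicate 1 (0.56) or without low replicate 3 (0.54). For high against medium, the other members with a DESeq2 adjusted p under 0.05 were IGFBP3, IGFBP4 (-0.23 ± 0.03), IGFBP5 (-0.45 ± 0.07) and IGFBP6 (-0.14 ± 0.05), while IGFBP2 (-0.09 ± 0.32) and IGFBP7 (0.04 ± 0.04) did not pass. For medium against low only IGFBP3 (0.13 ± 0.03) passed beside IGFBP1, and IGFBP2, IGFBP4, IGFBP5, IGFBP6 and IGFBP7 lay between -0.08 and 0.18. By adjusted p alone, 40.9% of all genes tested passed for high against medium and 18.9% for medium against low.

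IGFBP5, which binds to the extracellular matrix and is abundant in mesenchymal cells, moved the other way. It read 1037, 1039 and 1046 normalized counts in SW1783 vehicle, 931, 911 and 995 at the low dose, 864, 980.1 and 843 at the medium dose and 713, 649.8 and 615 at the high dose. Every treated library was below every vehicle library, and the high group did not overlap the medium group, while the low and medium groups overlapped. The change at the high dose was -0.66 ± 0.07 (DESeq2 adjusted p = 1.38e-18), a level 36.8% under vehicle. The medium dose gave -0.21 ± 0.07 (DESeq2 adjusted p = 0.012) and 20 µg/mL gave -0.14 ± 0.07 (DESeq2 adjusted p = 0.358). IGFBP1 and IGFBP5 were the 2 members of 7 called at the high dose, where 18.2% of the 19453 genes tested were called.

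IGFBP4 also fell in SW1783 at the high dose, by less than 1.5-fold. It read 9592, 9719 and 9830.4 normalized counts in vehicle and 7783, 7775 and 7989.8 at the high dose. All high-dose libraries were below all others of the line, and the log2 change was -0.31 ± 0.03 (DESeq2 adjusted p = 7.15e-31). For the medium dose, DESeq2 gave -0.07 ± 0.03 with an adjusted p of 0.0176. IGFBP6 went from 1803, 1911 and 1844 in vehicle to 1602, 1737 and 1621 at the high dose, without overlap, a change of -0.16 ± 0.05 (DESeq2 adjusted p = 0.00144). Its medium dose differed from vehicle by -0.03 ± 0.05 (DESeq2 adjusted p = 0.73).

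IGFBP7, the most abundant member of SW1783, rose slightly. It read 33337, 36016 and 36279 normalized counts in vehicle and 37037, 39749 and 39793 at the high dose, for a log2 change of 0.14 ± 0.04 (DESeq2 adjusted p = 0.000198). The medium dose gave 0.10 ± 0.04, for which the DESeq2 adjusted p was 0.0168. IGFBP3 had its highest ACD group at the medium dose, with 9873, 9825 and 9604 against 8734, 8618 and 9169 in vehicle, a change of 0.14 ± 0.03 (DESeq2 adjusted p = 5.52e-06). At the high dose it was at 9113, 9126 and 9205, overlapping vehicle, with 0.05 ± 0.03 (DESeq2 adjusted p = 0.166), and its difference from the medium dose was -0.10 ± 0.03 (DESeq2 adjusted p = 0.00278). IGFBP2 stayed between 24.7 and 39.4 normalized counts in all batch B libraries of SW1783, and its interval at the high dose, -0.82 to 0.44 on the log2 scale, contains falls of more than 1.5-fold but no rise of that size.

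By adjusted p alone, 5 of the 7 members passed at the high dose (IGFBP1 and IGFBP7 up, IGFBP4, IGFBP5 and IGFBP6 down), where 46.5% of all genes passed. At the medium dose 5 passed as well (IGFBP1, IGFBP3 and IGFBP7 up, IGFBP4 and IGFBP5 down), against 29.5% of genes. Of these, IGFBP4, IGFBP5 and IGFBP7 did not pass at the medium dose when single libraries were left out, with DESeq2 adjusted p up to 0.134 (without medium replicate 3), 0.122 (without medium replicate 3) and 0.192 (without vehicle replicate 1). None of the 7 was called at the medium dose (3.81% of genes called), where 5 had an unadjusted p under 0.05 and the edgeR quasi-likelihood test called 0. At the low dose 0 of the 6 members with a DESeq2 adjusted p (IGFBP2 had none) were called (0.118% of genes), with 1 at an unadjusted p under 0.05, IGFBP1, and 0 called by edgeR. The low-dose values of the other members were 0.01 ± 0.03 for IGFBP3, -0.01 ± 0.03 for IGFBP4, 0.05 ± 0.05 for IGFBP6, 0.04 ± 0.04 for IGFBP7 and -0.28 ± 0.32 for IGFBP2. The summed member level was 1640 ± 62.0 CPM per kilobase in vehicle and 1598 ± 56.4 at the high dose, a difference within the spread. This sum depends on the CPM scale, and its change on normalized counts was not computed. Between these groups mean IGFBP3 fell from 415 to 397 CPM but rose from 8841 to 9148 normalized counts. The share of IGFBP1 in the sum went from 0.887% ± 0.0242 to 1.84% ± 0.0288 and that of IGFBP4 from 12.6% ± 0.336 to 9.67% ± 0.280.

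**Figure D2:**
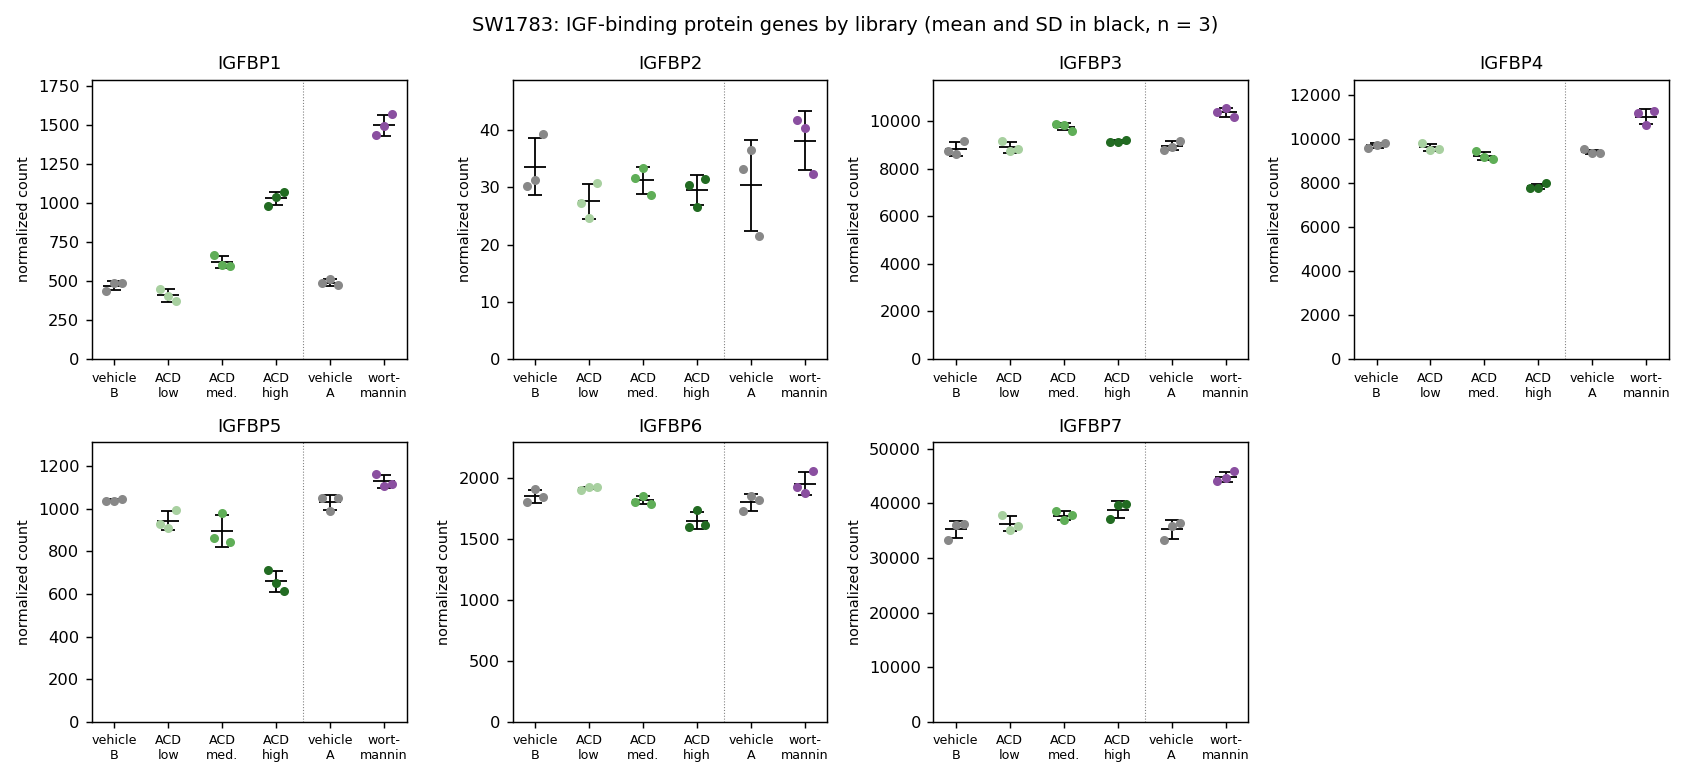
Normalized counts of the 7 genes in each SW1783 library, with batch B groups left and batch A groups right of the dotted line, points for libraries and black bars for mean and SD (n = 3), all axes from 0. IGFBP1 climbed from 469.5 ± 29.6 in batch B vehicle to 1028 ± 43.65 at the high dose, and IGFBP5 went from 1041 ± 4.94 to 659.5 ± 49.7.

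Other measures moved with these groups in SW1783. The share of mitochondrial ribosomal RNA was 0.912 to 0.96% in vehicle, 3.01 to 3.33% at the low dose, 7.67 to 8.05% at the medium dose and 5.76 to 6.06% at the high dose. The summed level of the 10 astrocytic markers was 119 to 125 CPM in vehicle and 66.3 to 72.1 CPM at the high dose. Most of this sum was SOX9 and SLC1A3. The sum of the 6 mesenchymal markers went from 15293 to 15591 CPM to 12775 to 12931 CPM. The sum of the 10 intestinal epithelial markers, most of it KRT18, went from 222 to 231 CPM to 68.9 to 75.2 CPM. Of the immune markers, CD68 was between 135 and 188 CPM and PTPRC between 3.28 and 14.2 CPM over all SW1783 libraries, and CD3E was at 0 in each. The part of these measures in the results was not tested, and in bulk RNA fewer cells of a kind and less RNA per cell cannot be told apart.

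Wortmannin raised IGFBP1 in SW1783. Normalized counts were 484, 514 and 472 in batch A vehicle and 1432, 1489 and 1565 with wortmannin. The groups were far apart, and the rise was 3.04-fold, with a 95% interval of 1.47 to 1.74 on the log2 scale that lies above the interval of the high dose of the extract (0.97 to 1.29). It was the only member of 7 called, against 2.72% of the 13944 genes tested. By adjusted p alone 4 members passed, all upward, against 33.9% of genes. These were IGFBP1, IGFBP7 (from 33274, 35918 and 36434 to 44098, 44693 and 45867, log2 0.35 ± 0.04, DESeq2 adjusted p = 6.02e-14), IGFBP4 and IGFBP3. IGFBP4 went from 9535, 9379.9 and 9354 to 11164, 10615 and 11253, a change of 0.22 ± 0.03 (DESeq2 adjusted p = 1.47e-16). IGFBP3 changed by 0.20 ± 0.02 (DESeq2 adjusted p = 1.49e-15). IGFBP5 differed by 0.13 ± 0.06 (DESeq2 adjusted p = 0.0674) and IGFBP6 by 0.12 ± 0.05 (DESeq2 adjusted p = 0.0544), both with no overlap between the groups. IGFBP2 differed by 0.32 ± 0.33 (DESeq2 adjusted p = 0.502), with overlap. The summed level of the astrocytic markers was 118.7 to 124.7 CPM in batch A vehicle and 141 to 142 CPM with wortmannin, that of the mesenchymal markers 14998 to 15322 CPM and 17402 to 17662 CPM, and their part in these changes was not tested. Set beside the high dose of the extract, IGFBP1, IGFBP3 and IGFBP7 had the same sign under both agents, though IGFBP3 did not pass at the high dose. IGFBP4 had opposite signs (0.22 and -0.31), as had IGFBP5 and IGFBP6, which did not pass with wortmannin. IGFBP2 passed under neither agent. Each value was taken against the vehicle of its own batch. The difference between the agents was not tested.

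**Figure D3:**
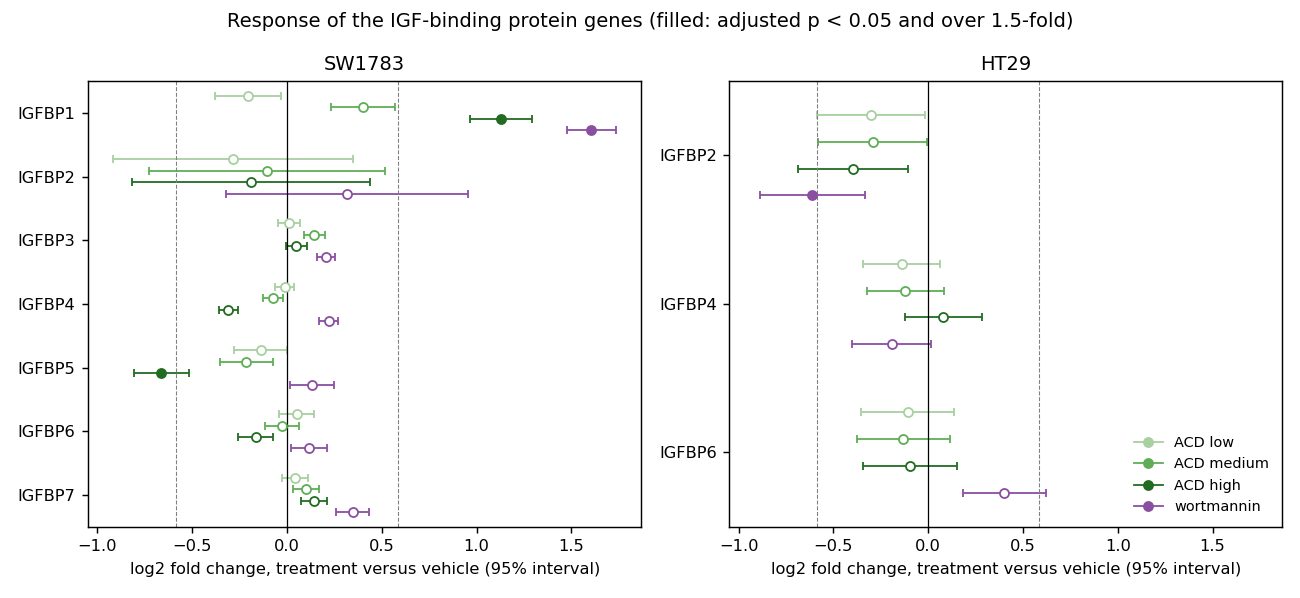
Log2 fold change of each gene against the vehicle of its batch for 3 doses of ACD and wortmannin in SW1783 (left, 7 genes) and HT29 (right, the 3 measured genes), with 95% intervals, dashed lines at 1.5-fold and filled points for called genes. Filled points are IGFBP1 under ACD high (1.13) and wortmannin (1.60), IGFBP5 under ACD high (-0.66) and IGFBP2 under wortmannin in HT29 (-0.61).

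In HT29 only IGFBP2, IGFBP4 and IGFBP6 could be followed, and none of them was called at any dose of the extract. The mean of IGFBP2 was lower at every dose, with 95% intervals below 0 and no adjusted p under 0.05. It read 661, 494 and 461 normalized counts in vehicle, 414, 429.8 and 463 at the low dose, 423, 442 and 450.2 at the medium dose and 357, 481 and 394 at the high dose. The low and high groups overlapped vehicle and the medium group did not, with vehicle replicate 1 far above the others. The log2 differences were -0.30 ± 0.15 at the low dose (DESeq2 adjusted p = 0.631), -0.29 ± 0.15 under 100 µg/mL (DESeq2 adjusted p = 0.443) and -0.40 ± 0.15 at the high dose (DESeq2 adjusted p = 0.0793). Of all HT29 genes tested, 0.321% were called at the low dose, 0.827% at the medium dose and 2.92% at the high dose, and 1 member, IGFBP2, had an unadjusted p under 0.05 at each dose while edgeR called 0.

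The high-dose difference of IGFBP2 depended on the libraries that stood apart. Without vehicle replicate 1 it was -0.24, the nearest to 0 of the 6 values with 1 library left out. Without high-dose replicate 2 it was -0.51 (DESeq2 adjusted p = 0.0022) and without vehicle replicate 3 it was -0.49 (DESeq2 adjusted p = 0.0365), both still under 1.5-fold. Its share of the summed member level (in CPM per kilobase) was 10.1 to 11.1% in vehicle and 7.95 to 8.44% at the high dose, a difference of -2.27 percentage points. The shares at the low dose (9.15 to 9.81%) and medium dose (9.34 to 9.53%) also lay below vehicle. Each of these differences had an exact two-sided permutation p of 0.1, the smallest that 3 against 3 libraries allow.

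IGFBP4 in HT29 read 4356, 3515 and 3325 in vehicle and 3675, 4397 and 3784 at the high dose, a difference of 0.08 ± 0.10 (DESeq2 adjusted p = 0.775) with a 95% interval of -0.12 to 0.28. IGFBP6 read 1684, 1434 and 1282 in vehicle and 1190.4, 1608 and 1333 at the high dose, a difference of -0.10 ± 0.13 (DESeq2 adjusted p = 0.773) with an interval of -0.34 to 0.15. Both overlapped vehicle. At the low and medium doses IGFBP4 differed by -0.14 ± 0.10 and -0.12 ± 0.10, and IGFBP6 by -0.11 ± 0.13 and -0.13 ± 0.13, with DESeq2 adjusted p between 0.78 and 0.947. Between neighbouring doses 0 members were called in HT29 and 0 had an unadjusted p under 0.05, by edgeR 0 as well, against 0.163% of genes called for medium against low and 0.700% for high against medium. The share of mitochondrial ribosomal RNA was 11.3 to 12.5% at the high dose and 1.14 to 1.22% in vehicle. The astrocytic list summed to 168 to 178 CPM in vehicle and 112 to 138 CPM at the high dose, the mesenchymal list to 496 to 558 and 386 to 450.1 CPM, and the epithelial list to 5115 to 5311 and 4507 to 5721 CPM. The part of these measures in the results was not tested.

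**Figure D4:**
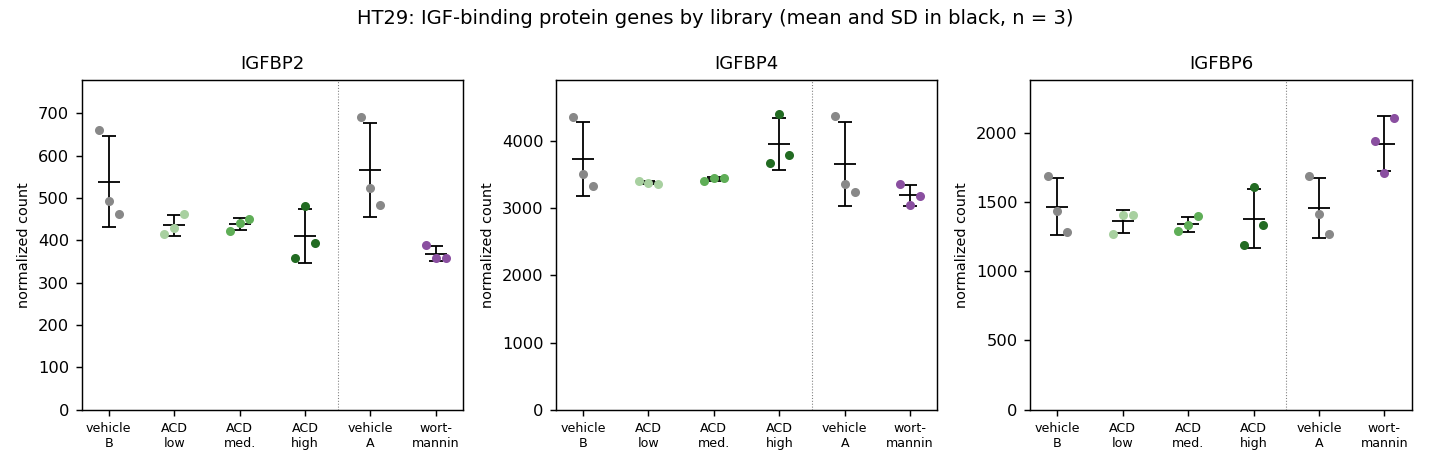
Normalized counts of IGFBP2, IGFBP4 and IGFBP6 in each HT29 library, drawn as for SW1783. Replicate 1 of both vehicle groups is the highest vehicle point in every panel, and the wortmannin libraries lie below batch A vehicle for IGFBP2 (358 to 389 against 483 to 691) and above it for IGFBP6 (1711 to 2107 against 1265 to 1690).

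Wortmannin lowered IGFBP2 and raised IGFBP6 in HT29. IGFBP2 fell from 691, 523 and 483 to 389, 358 and 359 normalized counts, without overlap, by 0.61 ± 0.14 on the log2 scale (DESeq2 adjusted p = 0.000276). It was the only member called, against 2.65% of the 13678 genes tested. Without batch A vehicle replicate 1 the change was -0.44 (DESeq2 adjusted p = 0.00178), under 1.5-fold. IGFBP6, the IGF2-preferring member, went from 1690, 1413 and 1265 to 1939, 1711 and 2107, a change of 0.40 ± 0.11 (DESeq2 adjusted p = 0.00369), under 1.5-fold. Without wortmannin replicate 3 it was 0.33 (DESeq2 adjusted p = 0.0832). By adjusted p alone these 2 members passed, against 18.7% of genes. IGFBP4 differed by -0.19 ± 0.11 (DESeq2 adjusted p = 0.202). IGFBP1, the member called in SW1783, was at 0 to 2 counts in every HT29 library and at 0 or 1 in each treated one, so a fall could not be measured there and no rise above the floor of 3 counts was seen. The epithelial list summed to 5210 to 5493 CPM in batch A vehicle and 5735 to 5762 CPM with wortmannin, the mesenchymal list to 489.8 to 559 and 575 to 588 CPM, the astrocytic list to 169.6 to 181 and 195 to 202 CPM, and mitochondrial ribosomal RNA made up 1.15 to 1.23% and 1.3 to 1.4%. The part of these measures in the wortmannin results was not tested.

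The difference between the lines was tested as an interaction for IGFBP2, IGFBP4 and IGFBP6, the members with counts in both. The high-dose response of IGFBP4 was lower in SW1783 than in HT29, with a difference of -0.43 ± 0.10 on the log2 scale (DESeq2 adjusted p = 0.000112), under 1.5-fold. For IGFBP2 and IGFBP6 the high-dose difference was 0.17 ± 0.28 and -0.11 ± 0.13 (DESeq2 adjusted p = 0.749 and 0.607). Under wortmannin, IGFBP2 differed by 0.89 ± 0.28 (DESeq2 adjusted p = 0.0141) and IGFBP4 by 0.39 ± 0.12 (DESeq2 adjusted p = 0.0116), both more positive in SW1783. For IGFBP6 the difference was of the other sign, -0.31 ± 0.13 (DESeq2 adjusted p = 0.104). Its DESeq2 adjusted p was 0.0266 without HT29 wortmannin replicate 2 (-0.39) and 0.00373 without HT29 batch A vehicle replicate 1 (-0.42), and that of edgeR was 0.00361 (-0.27). The IGFBP2 interaction rests on SW1783 libraries with 21 to 49 counts, and it was 0.82 (DESeq2 adjusted p = 0.0569) without SW1783 wortmannin replicate 1 and 0.71 (DESeq2 adjusted p = 0.095) without SW1783 batch A vehicle replicate 3. Of the 7 members, 1 was called for the high dose (IGFBP7, from HT29 libraries with 0 to 11.4 counts) against 14.6% of genes, and 1 for wortmannin (IGFBP2) against 3.36%. The IGFBP7 call was lost, leaving 0, without HT29 high-dose replicate 1, without high-dose replicate 3 or without HT29 vehicle replicate 2. For the medium dose 0 were called against 3.34%, with 1 at an unadjusted p under 0.05 (IGFBP7) and 0 by edgeR, and IGFBP2, IGFBP4 and IGFBP6 differed by 0.17 ± 0.28, 0.02 ± 0.10 and 0.08 ± 0.13. For IGFBP1, IGFBP3 and IGFBP5, at the floor in HT29, the standard errors of the interactions were 1.45 to 1.67, and no difference could be read.

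Vehicle libraries of the batches overlapped for each measured member but IGFBP4 in SW1783. As given above, same-numbered vehicles of the batches were closer than those with other numbers, and whether they came from separate cultures is not given. If they did not, this comparison could not show a difference between the batches. The log2 differences of batch A over batch B were between -0.14 (IGFBP2) and 0.06 (IGFBP1) in SW1783 and between -0.03 (IGFBP4) and 0.07 (IGFBP2) in HT29, among members with a mean of 10 or more counts, with DESeq2 adjusted p = 1 for each.

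Of the 5 ligands and receptors tested between the lines, 3 were called, against 55.9% of all genes. IGF2 (-8.40 ± 0.36) and IGF1R (-1.43 ± 0.10) were lower in SW1783 and IGF2R, which clears IGF2, was higher (1.02 ± 0.09), while INSR differed by 0.03 ± 0.09. IGF2 was at 2143 ± 132.5 normalized counts in HT29 vehicle and 5.81 ± 2.68 in SW1783 vehicle, each on the scale of its line, and IGF1 was at 0 in every HT29 library and at a mean of 4.83 or less in each SW1783 group. The counts of called genes in the lists stand against all genes called in the same comparison, 18.2% at the high dose and 2.72% with wortmannin in SW1783, and 2.92% and 2.65% in HT29. Of the 4 tested genes of the ligand and receptor list, 1 was called in SW1783 at the high dose, a share near that of all genes. This was IGF1R, which fell by 0.68 ± 0.08 (DESeq2 adjusted p = 1.34e-17). The list median was 0.12 there, and the median over all genes tested was between -0.01 and 0.01 in each comparison of a treatment with vehicle. In HT29 with wortmannin 2 of 4 rose, IGF2 by 0.72 ± 0.07 (DESeq2 adjusted p = 2.28e-22) and INSR, the insulin receptor, by 0.70 ± 0.10 (DESeq2 adjusted p = 4.46e-11). The list median was 0.54. In SW1783 with wortmannin 0 of 3 were called by DESeq2 and 1 by edgeR, with 4 listed genes at an unadjusted p under 0.05. In HT29 at the high dose 0 of 4 were called, 0 by edgeR, with 1 at an unadjusted p under 0.05.

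Among the receptor adaptors and regulators, 3 of 6 rose and 1 fell in SW1783 at the high dose (18.2% of all genes called), with a list median of 0.45. IRS2 rose by 2.83 ± 0.06, GRB14 by 1.50 ± 0.45 and GRB10 by 0.62 ± 0.04, and IRS1 fell by 0.62 ± 0.04. IRS2, which links the insulin receptor to PI3K, went from 454.6 ± 11.2 to 3242 ± 171 normalized counts. It rose by 0.62 ± 0.09 with wortmannin, the only one of the 5 tested genes of this list called there. In HT29 the high dose raised 1 of 6, GRB10 (0.70 ± 0.14), and with wortmannin 0 of 5 were called by DESeq2 and 0 by edgeR, with 2 at an unadjusted p under 0.05.

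Of the proteases that cut IGF-binding proteins, their inhibitors and partners, 4 of 13 rose and 1 fell in SW1783 at the high dose (18.2% of all genes called), with a list median of 0.25. PAPPA2, which cuts IGFBP5 and IGFBP3, rose by 1.75 ± 0.41, from 12.1 ± 2.94 to 40.4 ± 10.1 normalized counts. ADAMTS1 rose by 0.91 ± 0.05 and MMP1 by 0.79 ± 0.06. The gene that fell was ADAM12 (-0.70 ± 0.03), named after its value was seen. STC2, an inhibitor of PAPPA proteases, rose by 0.75 ± 0.03, from 10966 ± 303 to 18496 ± 681 normalized counts. With wortmannin 0 of 11 were called in SW1783 by DESeq2 and 0 by edgeR, though 10 of the listed genes had an unadjusted p under 0.05. In HT29 only 4 of the 14 were tested at the high dose, of which STC1 fell at a mean of 8.88 counts, and 1 with wortmannin, which was not called by DESeq2 or edgeR and had no unadjusted p under 0.05. Of the IGFBP-related proteins, ESM1 alone of 3 rose at the high dose in SW1783, at a mean of 6.56 counts. STC1 and ESM1 were named after their values were seen. With wortmannin 0 of 2 were called there by DESeq2 and 0 by edgeR, with 2 at an unadjusted p under 0.05.

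Of the genes known to be repressed by insulin or driven by FOXO, 5 of 14 rose and 2 fell in SW1783 at the high dose (median 0.31, 18.2% of all genes called). KLF15 rose by 4.45 ± 0.87 from near 0 counts, IRS2 by 2.83 ± 0.06 and CCNG2 by 1.90 ± 0.08, whereas PIK3IP1 fell by 1.01 ± 0.39. The others called, named after their values were seen, were BCL6 and CITED2, which rose, and SESN3, which fell. With wortmannin 5 of 13 rose and 0 fell in SW1783 (median 0.52, 2.72% of all genes called), PIK3IP1 by 1.01 ± 0.26, TXNIP by 0.77 ± 0.12, PDK4 by 0.69 ± 0.28, KLF9 by 0.64 ± 0.05 and IRS2, whose value is given among the adaptors. In HT29 the high dose lowered 3 of 15 and raised 0 (median -0.13), TXNIP by 1.38 ± 0.16, SESN3 by 1.01 ± 0.29 and SESN1 by 0.73 ± 0.12, and wortmannin raised 2 of 14 (median 0.11), TXNIP by 0.75 ± 0.06 and INSR by 0.70 ± 0.10.

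Genes of the amino acid and unfolded protein stress response, to which IGFBP1 is also known to respond, were called in most cases at the high dose in both lines and at the medium dose in SW1783. In SW1783, 11 of 12 rose at the high dose (median 2.39) and 11 of 12 at the medium dose (median 1.85), VLDLR being under 1.5-fold at both. The largest at the high dose were ATF3 (4.73 ± 0.16), TRIB3 (4.31 ± 0.06), DDIT3 (3.91 ± 0.06) and CHAC1 (2.94 ± 0.13). With wortmannin 0 of 12 were called (median -0.04), with 4 at an unadjusted p under 0.05 and 1 called by edgeR. At the SW1783 low dose 1 of 12 was called (median 0.32, 0.118% of all genes called), in HT29 1 of 12 at the medium dose (median 0.11, 0.827% of all genes) and 0 at the low dose, where 0 had an unadjusted p under 0.05 and edgeR called 0. In HT29 all 12 rose at the high dose (median 1.16, edgeR 11), led by CHAC1 (2.99 ± 0.17), ASNS (2.08 ± 0.14), DDIT4 (1.83 ± 0.08) and PSAT1 (1.45 ± 0.08), and with wortmannin 2 of 12 fell, ASNS by 0.76 ± 0.08 and PHGDH by 0.70 ± 0.11. IGFBP1 in SW1783 was called under both agents. These lists were chosen with earlier results of these data known, and the plot of the lists shows every tested gene.

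**Figure D5:**
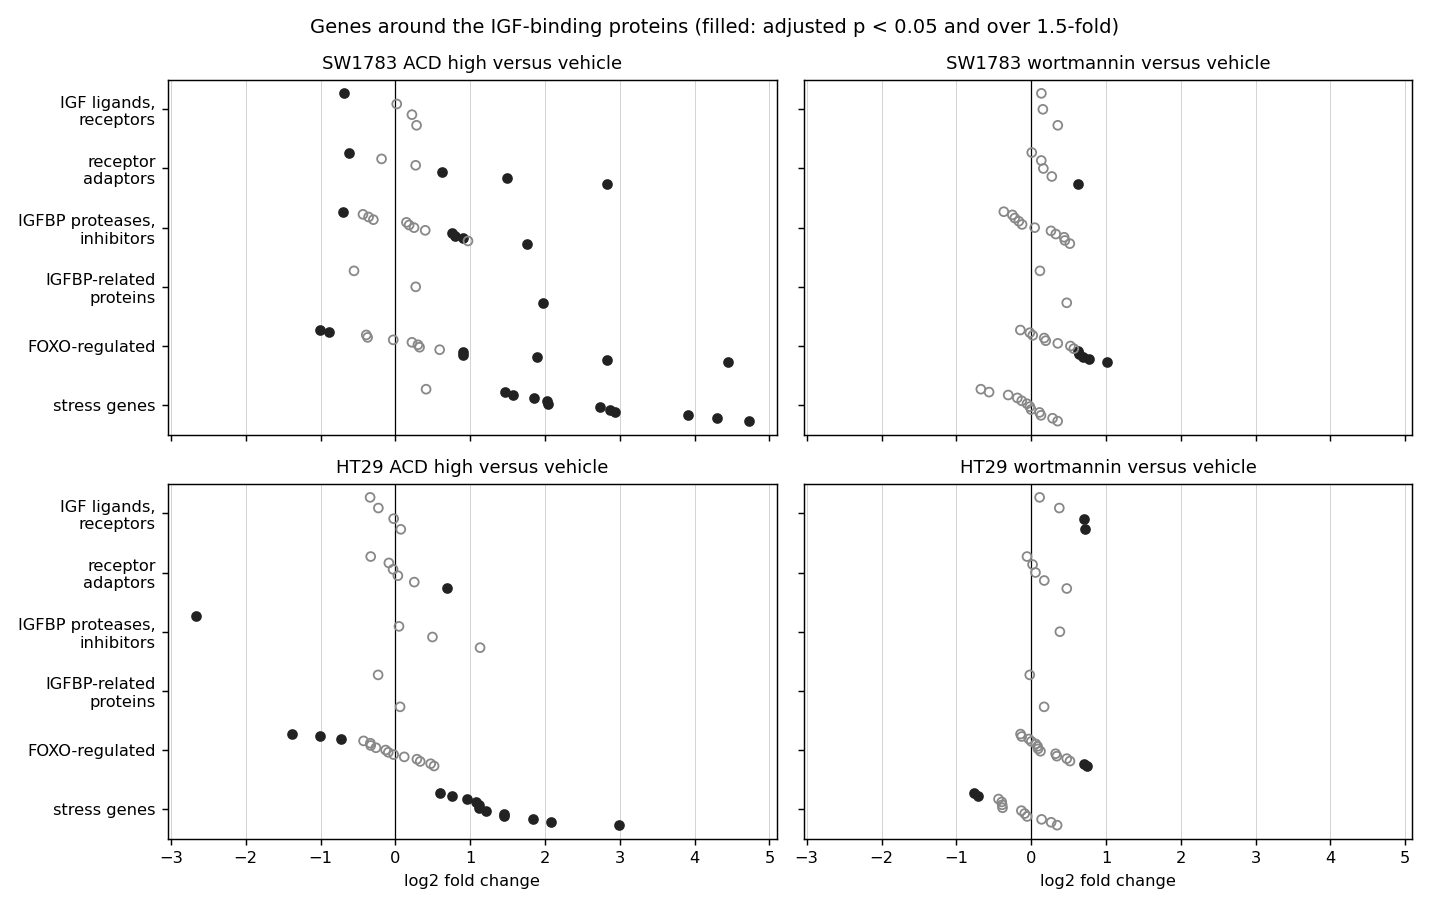
Log2 fold change of each tested gene of 6 lists around the IGF-binding proteins for ACD high and wortmannin in SW1783 and HT29, with 1 point per gene, filled where called and spread vertically within a list only for sight. The stress list lies to the right under ACD high in both lines (medians 2.39 and 1.16) and around 0 under wortmannin (-0.04 and -0.26).

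Across the 18 libraries of SW1783, which share treatments and so are not independent points, the genes whose log2 normalized counts followed IGFBP1 most closely were ATP9A (Pearson r = 0.977), TIMP1 (0.968) and LOX (0.959), out of 10801 genes with a mean of 100 or more. For IGFBP5 they were PCDHB7 (0.984), CEMIP2 (0.975) and PRKCA (0.974), and for IGFBP4 HOXB3 (0.976), YLPM1 (0.975) and CD59 (0.975). IGFBP7 followed SERPINE2 (0.950), TIMP1 (0.934) and SLC25A37 (0.934), and IGFBP3 followed PDLIM5 (0.944), ZNF281 (0.921) and CCN2 (0.916). IGFBP6 was closest to FBXL19 (0.913), OSBPL7 (0.902) and RAET1G (0.901). Among the members themselves, IGFBP4 and IGFBP5 (r = 0.902) and IGFBP1 and IGFBP7 (r = 0.892) were closest, while the neighbours on chromosome 7, IGFBP1 and IGFBP3, had r = 0.757. In HT29, over 10259 genes, IGFBP2 followed SNRPB (0.953), TSR3 (0.951) and CDK2AP2 (0.939). IGFBP4 followed DRAP1 (0.959), S100A16 (0.956) and MIIP (0.934), and IGFBP6 followed ISG15 (0.949), RNASET2 (0.931) and NOP53 (0.930).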

How the data were processed

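The authors deposited 1 table of RSEM expected counts per gene (Ensembl identifiers, annotation GRCh38.84 by the study's methods). The submitters' processing notes name FastQC 0.11.9, Trim Galore 0.6.5, STAR 2.7.3a, RSEM 1.3.3 and the build GRCh38, while the methods name GRCh38 together with hg19. Libraries were directional mRNA preparations read in pairs. How reads matching several genes were counted is not given in the sources used here beyond RSEM's estimates, and 8.84% of the deposited expected counts were not whole. They were rounded. Symbols were matched for 41209 of 60675 genes, the members among them.

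Tests were DESeq2 1.42.0 Wald tests (R 4.3.3) with its size factors and default filtering. They were fitted on all genes of a line and batch (both lines for interactions) and adjusted by Benjamini-Hochberg over all genes tested. The study's methods name the DESeq2 Wald test against vehicle and the same thresholds, but not which libraries were fitted together, so its counts of genes can differ. A gene was called at an adjusted p under 0.05 and an absolute fold over 1.5. Values after ± are SD (n = 3) for levels and SE for log2 changes. Alternatives were the edgeR 4.0.16 quasi-likelihood test with TMM, TMM-derived size factors, a filter on low counts, the 6 libraries compared alone, a replicate block, adjusted p alone, and leaving out each library. The DESeq2 and edgeR fits were also run on simulated counts in the design of SW1783 batch B. No such run was made for HT29 or for the interactions. Totals of 15941255 to 33866644 counts put the floor of 3 counts at 0.0886 to 0.188 CPM. Promoter windows came from RefSeq and gene lengths from GENCODE.

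The rule named all 7 members in every comparison, and those at the floor in HT29 are given there by their counts. From each list, the rule named at most 4 called genes per line for the high dose and wortmannin. These had the largest absolute log2 change and a mean of 10 or more counts. The text also names called genes beyond this rule, marked as named after their values were seen, and IRS2 in the FOXO list with wortmannin. For each member with a mean of 100 or more, it names the genes with the highest Pearson r of log2(normalized count + 1). The members, lists and tests were chosen with earlier results of these data known. Same-numbered libraries deviated together (every r over 0.1, from the data and not from the labels) for SW1783 medium against low (0.127 to 0.189) and for the vehicles of both batches (0.230 to 0.292 in SW1783, 0.421 to 0.771 in HT29), and not in the other comparisons.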

Additional observations from a re-analysis of the deposited data

Results flagged for a closer look

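The response of IGFBP2 to wortmannin differed between the lines, with an interaction of 0.89 ± 0.28 on the log2 scale (SW1783 minus HT29, DESeq2 adjusted p = 0.0141). In SW1783 the change was 0.32 ± 0.33, at 21 to 49 counts per library, and in HT29 it was -0.61 ± 0.14. The call of this difference was lost with a replicate block. It was also lost without SW1783 wortmannin replicate 1 or without SW1783 batch A vehicle replicate 3. What drew attention to it was the test of the difference itself, as for the next result.

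The response of IGFBP7 to the high dose of the extract differed between the lines by 2.07 ± 0.80 (DESeq2 adjusted p = 0.0379). The SW1783 change was 0.14 ± 0.04, and the HT29 side rests on 3.27, 11.4 and 3.08 expected counts in vehicle and 1.03, 3.17 and 0 at the high dose, so the value describes a handful of reads. The call was lost, leaving 0 members called, when HT29 high-dose replicate 1, high-dose replicate 3 or vehicle replicate 2 was left out, and with a replicate block.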

How the results depend on the processing

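The SW1783 results called at the high dose and with wortmannin kept their calls under every alternative run: with 1 library left out, IGFBP1 stayed at 1.08 to 1.16 at the high dose and 1.57 to 1.64 with wortmannin, and IGFBP5 at -0.72 to -0.61. Over all alternatives, 207 counts of called members stayed within 1.5 times the reported count, 8 rose and 10 fell, and of the values for single members 891 kept their sign and their side of the threshold, 6 fell below it and 28 turned sign. By adjusted p alone, with no fold threshold, 5 members passed for SW1783 high (46.5% of all genes), 5 for medium (29.5%) and 4 for wortmannin (33.9%). Between SW1783 doses, 5 passed for high against medium (40.9% of all genes) and 2 for medium against low (18.9%). For HT29 wortmannin 2 passed (18.7%). Of the line differences, 2 members passed for the response to the high dose (27.7%) and 2 for that to wortmannin (14.9%).

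With a replicate block, the line differences in the response to the high dose and to wortmannin had 0 called members (IGFBP2 under wortmannin 0.91, DESeq2 adjusted p = 0.0661). The block changed no other call of a member. The numbers paired the libraries only for SW1783 medium against low, where IGFBP1 was 0.61 with the block, and for the vehicles, and no paired analysis was possible for the comparison of the lines because a block nested in the line left no residual degrees of freedom. Leaving out 1 library moved the count of called members between 0 and 1 for HT29 wortmannin, for SW1783 medium against low and for the line differences under the high dose and wortmannin.

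The 28 values that turned sign did so with 1 library left out, all for members not called. In SW1783 the ranges were -0.17 to 0.0217 for IGFBP2 at the medium dose, -0.0113 to 0.0375 for IGFBP3 at the low dose, and, between the vehicles, -0.30 to 0.0564 for IGFBP2, -0.0284 to 0.0140 for IGFBP5 and -0.0380 to 0.0414 for IGFBP7. In HT29 they were -0.0010 to 0.20 for IGFBP4 and -0.22 to 0.0095 for IGFBP6 at the high dose, -0.20 to 0.0018 for IGFBP4 at the medium dose, -0.0840 to 0.13 for IGFBP6 between high and medium, and -0.0276 to 0.0542 for IGFBP2 and -0.0720 to 0.0052 for IGFBP6 between medium and low. Between the HT29 vehicles they were -0.0920 to 0.23 for IGFBP2, -0.17 to 0.0921 for IGFBP4 and -0.13 to 0.0942 for IGFBP6. For the line difference at the medium dose they were -0.0978 to 0.0949 for IGFBP4 and -0.0240 to 0.16 for IGFBP6. The cause was not tested.

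Over all genes, edgeR called 803 against 379 by DESeq2 for SW1783 wortmannin 706 against 362 for HT29 wortmannin, and, in SW1783, 912 against 537 for the medium dose, 131 against 11 for the low dose, 543 against 273 for medium against low and 55 against 1 for the vehicles, where filtering low counts gave 3. The block gave 201 for HT29 wortmannin and 272 against 458 for the line difference under wortmannin, and the 6 libraries alone gave 299 against 480 at the HT29 high dose, 68 against 103 for HT29 high against medium and 6 against 11 at the SW1783 low dose. The share of IGFBP2 in HT29, taken with the union of exons as length (an alternative chosen after seeing the data), fell by 0.924 points at the high dose and by 1.52 with wortmannin. IGFBP1, IGFBP3 and IGFBP5 were under the floor of 3 counts in every HT29 library, so a fall in them was not detectable there. IGFBP7 was at 0 to 11.4 expected counts, so any change in it there rests on few reads.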
